A study of Mus musculus with 145 samples.

Results

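Fbxw7 and Cul1 encode partner proteins of 1 ubiquitin ligase, and transposon insertions in both genes were described in 94 untreated and 51 drug-resistant mouse mammary tumours. They were 2 of 13391 gene regions in the deposited table. The Fbxw7 region (gene identifier 50754) and the Cul1 region (26965) were taken by identifier, and every mapped site between the start and the end of a region was counted as a site of that gene. A tumour was called hit when a site had at least 10 reads in its library, and where several libraries had reads at the same position and strand, only the one with the most kept the site. By this rule Fbxw7 held 85 and Cul1 held 13 of the 101066 sites kept in all. Both genes were chosen by their measured shares of hit tumours in the resistant and the untreated group, so these shares are given as a description.

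Fbxw7 is an F-box protein whose WD40 repeats bind phosphorylated proteins, among them cyclin E, MYC, JUN and NOTCH. It is the substrate receptor of an SCF ubiquitin ligase, in which SKP1 joins the F-box protein to the cullin CUL1, and CUL1 holds the RING protein RBX1 that recruits the ubiquitin-conjugating enzyme. FBXW7 is known as a tumour suppressor that is often mutated or deleted in human cancers, the breast included, and CUL1 serves many other F-box proteins besides.

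All tumours arose in the mammary fat pad of mice that carried 4 alleles, WAP-Cre, the Cre-dependent LSL-PB and LSL-PIK3CA(H1047R), and ATP1. Cre was driven by the milk protein promoter WAP, which is switched on in the mammary gland in late pregnancy, so that the mutant catalytic subunit of PI3K alpha and the piggyBac transposase (PB) were expressed in the same cells and the ATP1 transposon was mobilised there. The untreated group had 94 tumours from 23 mice, and the resistant group had 51 tumours from 25 mice that were dosed daily with 30 mg/kg BYL719 (alpelisib, an inhibitor of PI3K alpha) from a tumour volume of 250 mm3 and whose tumours grew under the drug at 3 or more measurements in succession within 3 weeks. Both groups carried every allele of the genotype, tumours of 1 mouse are not independent of each other, and DNA alone was measured, so neither the expression of the genes nor the cell types of a tumour can be read from these values. The mouse of a tumour was read from its title, and the titles name 48 mice where the labels state 53.

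Libraries differed in depth along with the groups. Total reads ran from 51 to 1604365 with a median of 136932 in resistant tumours, and from 2950 to 938987 with a median of 48339 in untreated tumours. The median number of own sites of at least 10 reads was 473 and 431. The titles of untreated tumours begin with TgTum (61 tumours) or tgTum (33) and those of resistant tumours with Tgtumor (35) or Mouse (16), so the form of the title and the group cannot be told apart. The intervals below are exact binomial intervals over tumours or over sites, and they do not allow for tumours that share a mouse or sites that share a tumour.

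The transposon inserts at the letters TTAA, and 84 of the 85 Fbxw7 sites and 12 of the 13 Cul1 sites were listed at TTAA. Each site below is shown as its listed letters (capitals) and the bases that follow on the strand of the site, as deposited. Shown are the 3 sites with the most reads in each gene and the untreated Fbxw7 site with the most. A TTAA hit in opposite directions by a pair of resistant tumours follows, and the 1 site of each gene whose listed letters were not TTAA. The bases of that Cul1 site hold TTAA 1 base further along, so its position may be listed 1 base off. Whether that Fbxw7 site lies at a TTAA was not tested. 
Fbxw7, resistant tumour 50, chr3:84839424, minus strand: TTAAactt
Fbxw7, resistant tumour 10, chr3:84964751, plus strand: TTAAagta
Fbxw7, resistant tumour 14, chr3:84967751, plus strand: TTAAatac
Fbxw7, untreated tumour 90, chr3:84954512, minus strand: TTAAaaat
Fbxw7, resistant tumour 13, chr3:84968183, minus strand: TTAAgaag
Fbxw7, resistant tumour 2, chr3:84968188, plus strand: TTAAgttg
Fbxw7, resistant tumour 10, chr3:84874007, minus strand: TAAAgaag
Cul1, untreated tumour 35, chr6:47465645, minus strand: TTAAataa
Cul1, untreated tumour 15, chr6:47459704, minus strand: TTAAccca
Cul1, resistant tumour 19, chr6:47464893, minus strand: TTAAaacc
Cul1, resistant tumour 35, chr6:47458639, minus strand: TTTAaaaa

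The positions are in mm10. A plus strand site is listed on the base after its TTAA and a minus strand site on the base before it, so the sites of resistant tumours 13 and 2 share the TTAA at chr3:84968184-84968187. At 353 and 265 reads, these were separate insertions in separate tumours. A further TTAA, at chr3:84928675-84928678, carried a minus strand site in resistant tumour 33 (12 reads) and a plus strand site in untreated tumour 26 (92 reads). The 84 TTAA sites of Fbxw7 thus lay on 82 different TTAA, and the 12 of Cul1 on 12.

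The Fbxw7 region spans chr3:84813577-84979198 (165.6 kb) on the plus strand. It begins 1413 bases before the RefSeq gene. RefSeq (GRCm38.p6) gives the gene 3 transcript starts, at 84815577, 84864145 and 84952211, which lie 2.0, 50.6 and 138.6 kb into the region. Exons and introns were not assigned here. The windows from 250 bases before to 50 after the second and the third start are shown. The counts by orientation given below are split at the third start. Both windows hold TTAA (capitals) without a site of at least 10 reads.
Fbxw7, the second start, chr3:84863895-84864194, plus strand: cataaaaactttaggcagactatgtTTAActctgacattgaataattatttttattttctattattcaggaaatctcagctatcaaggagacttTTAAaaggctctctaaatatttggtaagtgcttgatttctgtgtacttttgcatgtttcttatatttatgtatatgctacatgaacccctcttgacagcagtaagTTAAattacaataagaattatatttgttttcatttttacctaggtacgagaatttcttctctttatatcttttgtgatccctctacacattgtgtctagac
Fbxw7, the third start, chr3:84951961-84952260, plus strand: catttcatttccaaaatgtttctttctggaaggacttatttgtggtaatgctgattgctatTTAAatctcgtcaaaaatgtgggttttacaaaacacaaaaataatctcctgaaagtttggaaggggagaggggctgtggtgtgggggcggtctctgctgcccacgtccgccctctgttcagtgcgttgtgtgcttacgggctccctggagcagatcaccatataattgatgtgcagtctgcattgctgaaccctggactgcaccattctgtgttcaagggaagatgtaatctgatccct

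The window of the second start is 29.7% G or C and holds 3 TTAA, and the window of the third start is 46% G or C and holds 1. The window of the first start is 69% G or C and holds 0. TTAA reads the same on both strands, and 52.4% of the 32851 RefSeq windows of this length hold it. The nearest sites of at least 10 reads lay 1298, 882 and 412 bases from the first, the second and the third start.

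Fbxw7 was among the densest gene regions for insertions. It held 0.513 sites per kb against a median of 0.0614 over the 2558 gene regions hit in at least 5 tumours, and 44 of these were denser. Outside chromosome 10, which was left out of this ranking by rule, 12 of 12557 gene regions were hit in more tumours. These 12 include the row of Arfip1, which holds all 85 Fbxw7 sites and is described below. Fbxw7 was chosen by its shares of hit tumours, so its density and rank are a description. The 50 kb before the region held 9 sites (0.18 per kb) and the 50 kb after it 2 (0.04 per kb), so the density inside the region was above that on either side.

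Fbxw7 was hit in 22 of 51 resistant tumours (43.1%, exact 95% interval 29.3 to 57.8%) against 21 of the 94 untreated ones (22.3%, with an interval of 14.4 to 32.1%). The hit tumours came from 17 and 14 mice. Over the 2558 gene regions Fisher's exact test (two-sided, adjusted by Benjamini-Hochberg) called 0 regions (0%), with 77 at an unadjusted p under 0.05, and the adjusted p of Fbxw7 was 0.990 for a difference of 20.8 percentage points. Fbxw7 was chosen with this difference known, and 20 gene regions had a smaller p. Per mouse the shares lay closer together, with at least 1 hit tumour in 68% of resistant and 60.9% of untreated mice, a difference of 7.13 percentage points. Untreated mice gave 4.09 tumours each and resistant mice 2.04, so that an untreated mouse had more chances of a hit tumour.

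Tumours hit in Fbxw7 had a higher median number of own sites in both groups. In the resistant group the median number of own sites was 802 in tumours hit in Fbxw7 and 370 in the others, and in the untreated group it was 775 and 369. By title form the share hit was 48.6% in Tgtumor and 31.2% in Mouse, and 26.2% in TgTum and 15.2% in tgTum. In a logistic model with the log10 number of own sites as a covariate, the difference between groups was 19.6 percentage points for Fbxw7 and 7.88 for Cul1. Total reads were not in this model.

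**Figure D1:**
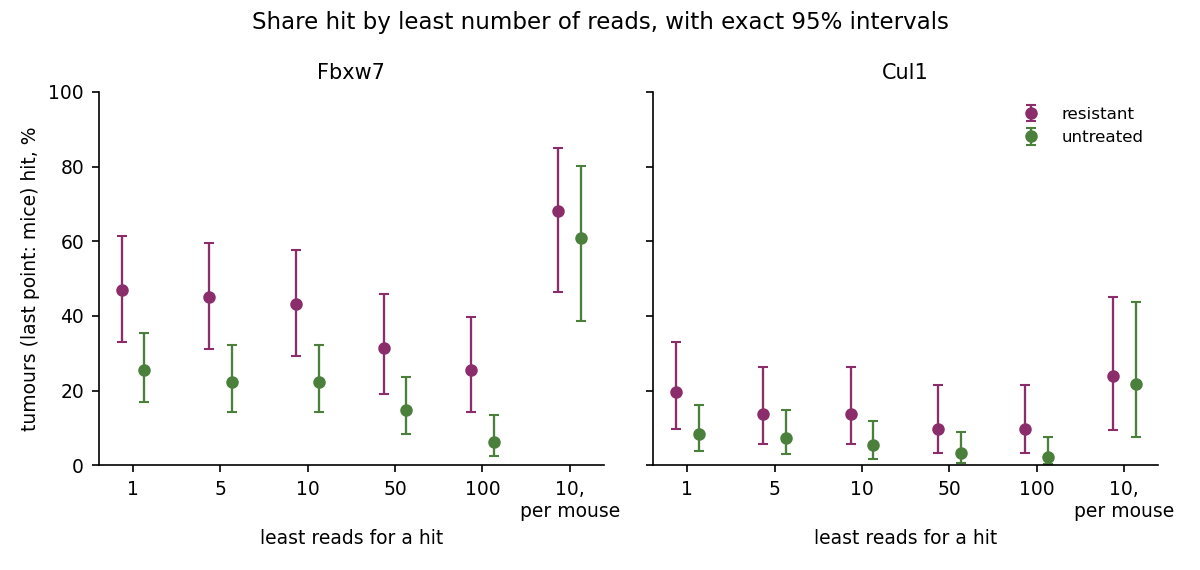
Share of tumours hit (y axis, percent) in Fbxw7 (left) and Cul1 (right) against the least number of reads that counts as a hit (x axis), with exact 95% intervals, for 51 resistant and 94 untreated tumours. The last pair of points counts the 25 resistant and 23 untreated mice with at least 1 hit tumour. Resistant tumours lie above untreated tumours at each least number of reads, with overlapping intervals at 10 reads, and the Fbxw7 shares are closest per mouse.

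The rule's threshold of 10 reads did not lie in a gap. The lowest Fbxw7 sites inside it had 10 and 11 reads and the highest outside it had 9 and 9, and 5 tumours had Fbxw7 sites only below it. Sites had 12 reads at the lowest, 53 at the median and 12258 at the highest in resistant tumours, and 10, 61 and 754 in untreated tumours. The medians were close and the upper ends were not: at least 100 reads were found at 21 of 59 resistant and 6 of 26 untreated sites. At 100 reads the share of hit tumours was 25.5% against 6.38%. These read counts are not scaled to library depth, whose median was higher in resistant tumours. At 0.1% of the reads of a library the share was 23.5% against 10.6%. Among the 100 most-read own sites of each tumour it was 15.7% against 5.32%.

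The best Fbxw7 site of a hit tumour ranked from 1 to 1786, with a median of 163. Ranks here and below are among own sites, so positions kept in another library are left out. The best site of a hit tumour took 0.00552% of its library's reads at the lowest, 0.113% at the median and 2.63% at the highest in resistant tumours, and 0.0132%, 0.0825% and 1.45% in untreated tumours. Of the 43 hit tumours, 5 had an Fbxw7 site among their 10 most-read own sites and 13 among their 100. Hit tumours had a median of 802 (resistant) and 775 (untreated) own sites of at least 10 reads. The counts expected for sites of any gene were not computed. In resistant tumour 10 the site at chr3:84964751, in the orientation of the gene, had 4075 reads and ranked 1 of the tumour's own sites. In resistant tumour 17 a site of 144 reads ranked 2. It lay at chr3:84813606, before the first RefSeq start, and no other hit lay there. In untreated tumour 90 an opposite site at chr3:84954512 had 754 reads and ranked 2. The site with the most reads in all, 12258 at chr3:84839424 in resistant tumour 50, ranked 4 in a library with 19 own sites of at least 10 reads.

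The number of Fbxw7 sites per hit tumour reached higher in the resistant group. The number was 1 at the lowest, 1.5 at the median and 16 at the highest in resistant tumours (mean 2.68 ± 3.33, SD, n = 22), and 1, 1 and 3 in untreated tumours (1.24 ± 0.539, n = 21). In the resistant group 11 tumours had 1 site, 9 had 2 to 4 and 2 had 5 or more, and in the untreated group 17 had 1 site and 4 had 2 to 4. The mean difference was 1.44 sites, with p = 0.0411 when group labels were permuted over the 31 mice (two-sided, 100000 resamples), and 0.165 after adjustment over the 4 comparisons of this kind. Without resistant tumour 10 the difference was 0.810 (p = 0.0353), and without its mouse, which gave resistant tumours 8, 9 and 10, it was 0.657 (permutation p = 0.0651).

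Resistant tumour 10 held 16 of the 85 Fbxw7 sites (18.8%), and its mouse held 23 (27.1%). This tumour also had 3320 own sites of at least 10 reads, the most of any resistant tumour. Resistant tumour 33 held 7 Fbxw7 sites among 621 own sites, and all 7 lay opposite to the gene, between chr3:84827457 and 84949212. Its most-read Fbxw7 site had 799 reads (0.985% of the library) and ranked 11. In untreated tumour 23, with 3 sites the highest of its group, they lay between 84966816 and 84977167, and 1 of the 3 was in the orientation of the gene.

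**Figure D2:**
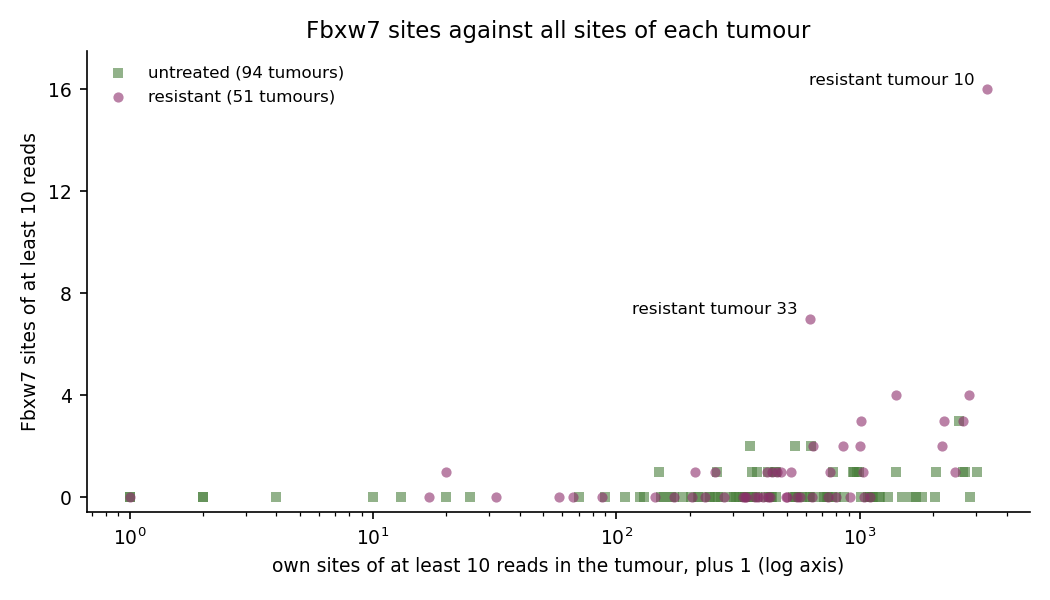
Number of Fbxw7 sites of at least 10 reads (y axis) against the number of all own sites of at least 10 reads plus 1 (x axis, log scale), 1 point per tumour, for 94 untreated (squares) and 51 resistant (circles) tumours. Resistant tumours 10 and 33 stand apart with 16 and 7 Fbxw7 sites, and no other tumour has more than 4.

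The orientation of a site is the strand given in the site table compared with the strand of the gene. The sources used here do not say which elements of the transposon then point along the gene. Over the region, 33 Fbxw7 sites had the orientation of the gene and 52 the opposite (38.8% along the gene, exact 95% interval 28.4 to 50.01%). The exact binomial test over the 819 gene regions with at least 10 sites called 2 (0.244%), neither of them Fbxw7, whose adjusted p was 1. In resistant tumours 20 sites lay along the gene and 39 opposite (adjusted p = 0.773 over 220 gene regions, 0% called), and in untreated tumours 13 and 13. The share along the gene was 33.9% in resistant and 50% in untreated tumours, and the difference between groups had an adjusted p of 1 by Fisher's exact test over 812 gene regions (0% called). With only the most-read site of each tumour, 22 of 43 lay along the gene (51.2%), so opposite sites were then not in excess. With all sites of a tumour counted, the share along the gene was 34.5% at 1 read (39 of 113). It was 44.4% at 50 reads (20 of 45) and 48.1% at 100 reads (13 of 27), so the excess was smaller among sites with more reads.

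Opposite sites were more numerous before the third start and sites along the gene after it. Before the third start, 14 sites lay along the gene and 44 opposite, and after it 19 lay along the gene and 8 opposite. In windows of 10 kb, all 10 sites between 10 and 20 kb and all 4, 6 and 4 sites of the windows between 50 and 80 kb were opposite, while 11 of 15 sites between 150 and 160 kb had the orientation of the gene. The stretch after the third start is 16.3% of the region and held 27 of the 85 sites (31.8%), or 1.0 per kb, against 0.474 per kb between the first and the second start and 0.386 per kb between the second and the third. Its 27 sites came from 18 tumours, 9 in each group. The third start was chosen as the boundary after the positions were seen, so these counts have no test.

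**Figure D3:**
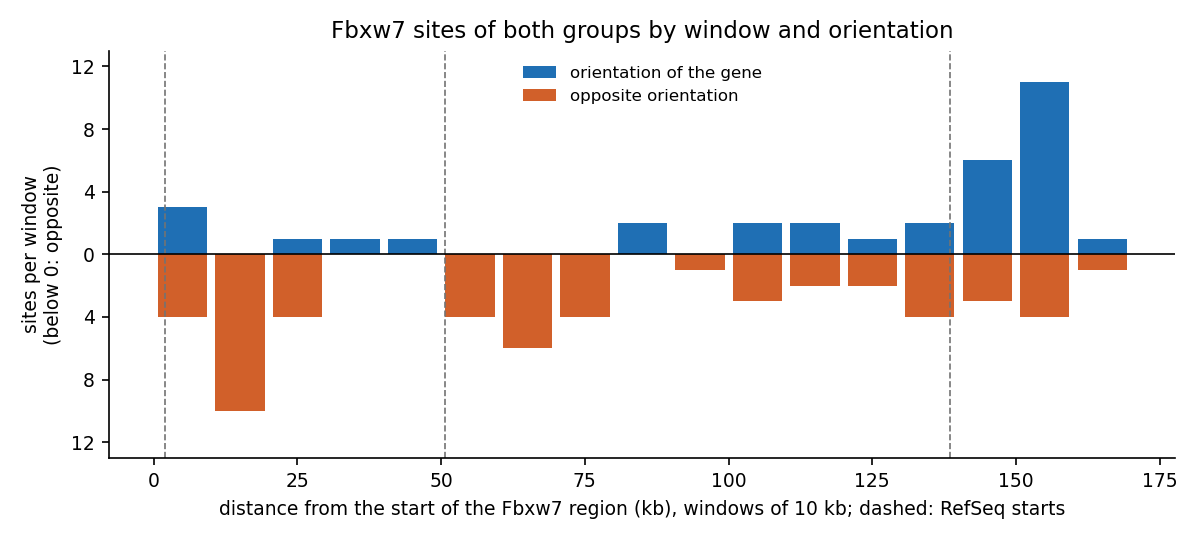
Fbxw7 sites of both groups in windows of 10 kb along the region (x axis, kb from its start), with sites in the orientation of the gene drawn above 0 and opposite sites below 0 (y axis, sites per window). Dashed lines mark the 3 RefSeq starts. Opposite sites prevail in the windows from 10 to 20 kb and from 50 to 80 kb, and sites along the gene in the windows from 140 to 160 kb.

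The same question was put to all gene regions without a boundary, by comparing the positions of sites along the gene with those of opposite sites. The median position in Fbxw7, as a fraction of the region from its start, was 0.869 for the 33 sites along the gene and 0.386 for the 52 opposite sites. Of the 796 gene regions with at least 10 sites and 3 or more in each orientation, Fbxw7 had the smallest p of the exact Mann-Whitney test, and none passed the adjusted threshold (0% called, 40 at an unadjusted p under 0.05, Fbxw7 adjusted p = 0.180). This test was added after the data were seen, and it counts sites of 1 tumour as independent. With 1 site per tumour the medians were 0.874 and 0.378 (n = 22 and 21, Mann-Whitney adjusted p = 1 over 704 gene regions). The adjusted p was 0.612 without resistant tumour 10, 0.9501 at 50 reads and 0.866 at 100 reads. Counting sites of at least 1 read it was 0.0278, and 0.0744 when sites of a tumour within 10 bp of each other on 1 strand were counted once.

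Of the groups, the resistant one had the more uneven counts. Resistant tumours had 8 sites along the gene and 36 opposite before the third start, and 12 and 3 after it. Untreated tumours had 6 and 8 before it, and 7 and 5 after it. The rank test within the resistant group gave an adjusted p of 0.0869 over 209 gene regions and within the untreated group 0.989 over 457, and the difference between the groups was not tested. Without resistant tumour 10, which had 1 site along the gene and 8 opposite before the third start and 5 and 2 after it, the counts of all tumours were 13 and 36 before it and 14 and 6 after it. Among the 27 sites of at least 100 reads, they were 6 and 12 before it and 7 and 2 after it. With only the most-read site of each tumour, they were 10 and 17 before it and 12 and 4 after it. Resistant tumour 33 had 0 sites along the gene and 7 opposite before the third start, and 0 sites after it.

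**Figure D4:**
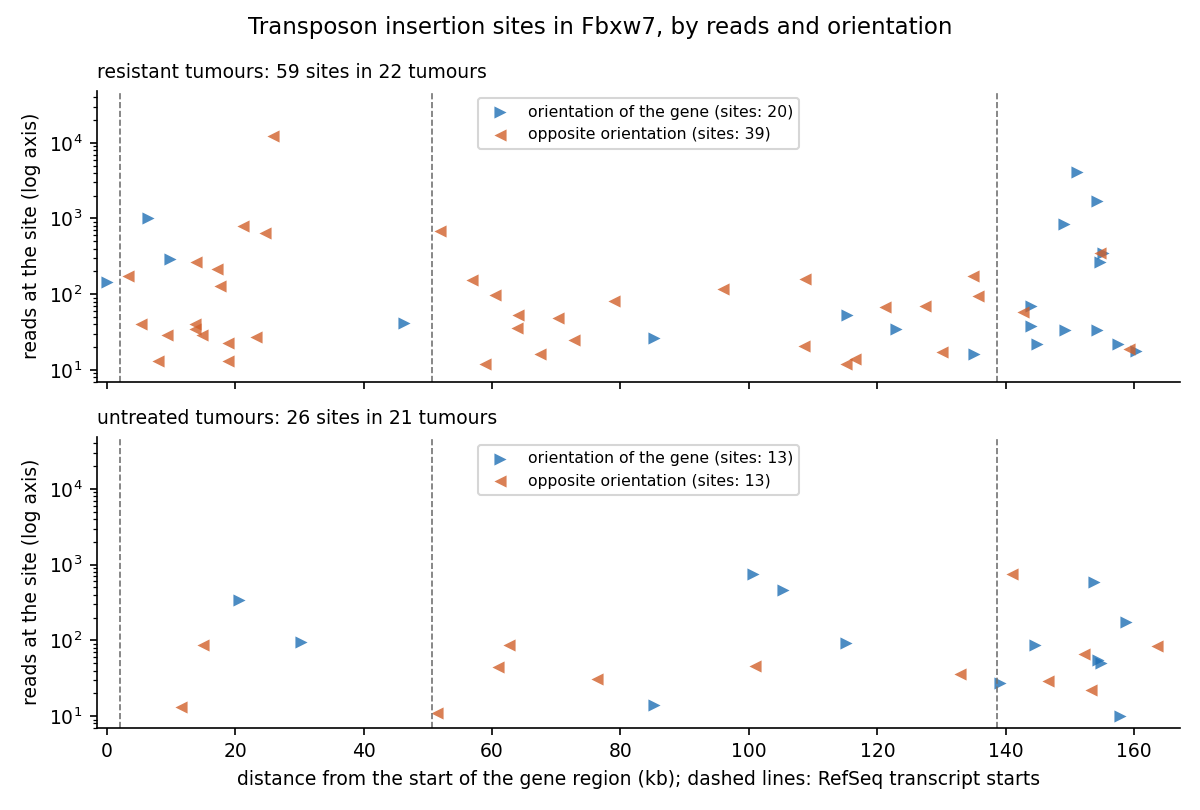
Each Fbxw7 site of at least 10 reads by its distance from the start of the region (x axis, kb) and its reads (y axis, log scale), in resistant (top) and untreated (bottom) tumours. Right-pointing triangles have the orientation of the gene, left-pointing triangles the opposite, and dashed lines mark the 3 RefSeq starts. Resistant tumours have 39 opposite and 20 same-orientation sites, untreated tumours 13 and 13, and the sites after the third start are mostly in the orientation of the gene in resistant tumours.

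The mean position of the Fbxw7 sites of a tumour was 0.469 ± 0.289 (SD, n = 22) in resistant and 0.635 ± 0.288 (n = 21) in untreated tumours. It ran from 0.000175 to 0.933 and from 0.0902 to 0.958, so the ranges overlapped, and the permutation over mice gave p = 0.0928 (0.186 adjusted over the 4 comparisons). Between the first and the second start lay 19 resistant sites in 13 tumours and 4 untreated sites in 3 tumours. After the third start the counts were 15 and 12.

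The row of Arfip1 (99889), a gene for an ARF-binding protein, overlaps the whole of the Fbxw7 row. It is listed from chr3:84496064 to 85889518 (1393 kb), whereas the RefSeq gene Arfip1 ends at 84582751. Of the 140 sites in the Arfip1 row, 85 were the Fbxw7 sites. The other 55 sites hit 9 resistant tumours (17.6%) and 28 untreated tumours (29.8%), an order opposite to that of Fbxw7, and the adjusted p of the whole row was 1 (Fisher's exact test). The only other gene row within 200 kb, Tmem154 (109002 bases away), held 1 site.

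The authors' deposited table lists 69 Fbxw7 insertions in resistant tumours, 22 of them along the gene, and 35 in untreated tumours, 15 of them along the gene. The share of tumours with an Fbxw7 insertion in the authors' deposited table is 60.78% in the resistant and 36.17% in the untreated group. With any read counted and shared positions left in every library, 35 resistant (68.6%) and 34 untreated (36.2%) tumours had an Fbxw7 read. Once each position was kept only in its most-read library, 24 and 24 tumours had a read (47.1% and 25.5%).

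The Cul1 region spans chr6:47451904-47526139 (74.2 kb) on the plus strand. Its 3 RefSeq starts lie close together, at 47453732, 47454319 and 47454757. The region held 13 sites (0.175 per kb), and 298 of the 2558 gene regions hit in at least 5 tumours were denser. The 50 kb before it held 2 sites and the 50 kb after it 5.

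Cul1 was hit in 7 of 51 resistant tumours (13.7%, exact 95% interval 5.70 to 26.3%) and in 5 of 94 untreated tumours (5.32%, with an interval of 1.75 to 11.98%), from 6 and 5 mice. The difference of 8.41 percentage points had an adjusted p of 1 over the 2558 gene regions by Fisher's exact test, and 225 regions had a smaller p. Per mouse the difference was 2.26 percentage points. Every hit untreated tumour was of the form TgTum, and 6 of the 7 resistant ones were of the form Tgtumor. As with Fbxw7, hit tumours had more own sites (median 638 against 431 in the resistant and 975 against 418 in the untreated group), and the logistic model with their number is given above. Hit tumours had 1 Cul1 site each except resistant tumour 10, which had 2.

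In 2 of the 12 hit tumours the most-read own site lay in Cul1. In resistant tumour 19 the opposite site at chr6:47464893 had 2497 reads, 20.6% of a library of 12134 reads, and ranked 1. In untreated tumour 35 the opposite site at chr6:47465645 had 36587 reads, 11.4% of the library, and also ranked 1. In untreated tumour 15 an opposite site of 3195 reads at chr6:47459704, 1.40% of the library, ranked 6. These 3 sites lie within 6 kb of one another. The best Cul1 sites of the other 9 hit tumours ranked from 20 to 1696 and had 11 to 612 reads.

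Cul1 sites were mostly opposite to the gene, 10 against 3 (23.1% along the gene, exact 95% interval 5.04 to 53.8%; adjusted p = 1 by the exact binomial test over 819 gene regions). It was 6 against 2 in resistant and 4 against 1 in untreated tumours (Fisher's exact test between groups, adjusted p = 1). The 8 sites within 20 kb of the last start were all opposite, 5 in resistant and 3 in untreated tumours, and of the 5 sites beyond it 3 lay along the gene. This boundary, too, was set after the positions were seen. The rank test of position against orientation gave Cul1 an adjusted p of 0.948.

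**Figure D5:**
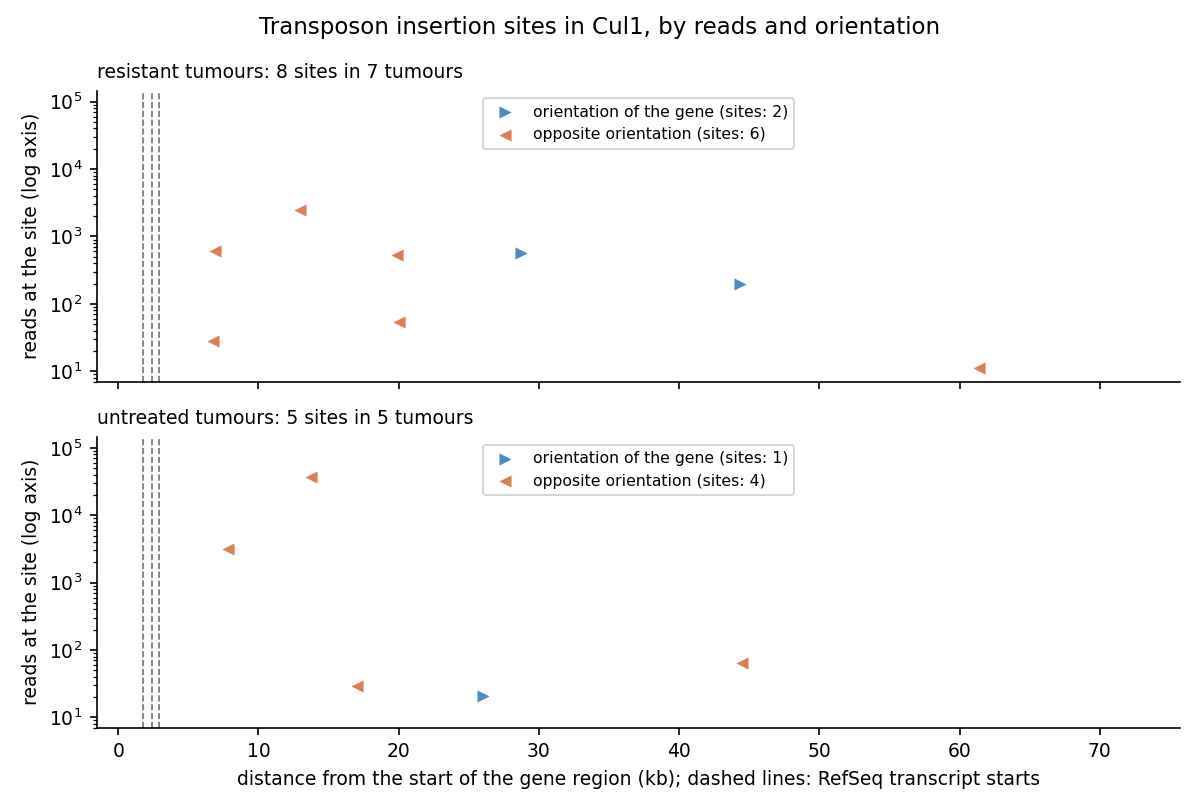
Each Cul1 site of at least 10 reads by its distance from the start of the region (x axis, kb) and its reads (y axis, log scale), in resistant (top, 8 sites) and untreated (bottom, 5 sites) tumours. Right-pointing triangles have the orientation of the gene, left-pointing triangles the opposite, and dashed lines mark the 3 RefSeq starts. The sites nearest to the starts are all opposite, among them those of 36587, 3195 and 2497 reads.

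Reads at the strongest Cul1 sites also appeared in other libraries of the same group. The position 47465645 had reads in 28 untreated and 0 resistant libraries, 7 of them with at least 10 reads, and the second highest library had 104 reads, 0.284% of the highest. The position 47459704 had reads in 21 untreated and 0 resistant libraries, and 47464893 in 8 resistant and 0 untreated libraries. With shared positions left in every library, 18 resistant (35.3%) and 34 untreated (36.2%) tumours had a Cul1 read, and with each kept in its most-read library, 10 (19.6%) and 8 (8.51%). The authors' deposited table gives 33.33% of resistant and 36.17% of untreated tumours for Cul1, the order of the groups when any read counts and shared positions stay in every library. At 10 reads with shared positions left in every library, Cul1 was hit in 8 resistant (15.7%) and 11 untreated (11.7%) tumours. In Fbxw7, 30 positions had reads in more than 1 library. The most widely shared was 84839424, with reads in 12 resistant libraries, of which 1 had at least 10 and the second highest had 3. Elsewhere the second library could be closer. Position 84909472 had 118 reads in resistant tumour 2 and 41 in resistant tumour 3, which came from 1 mouse. At this position 1 untreated library also had at least 10 reads. Position 84967294 had 590 reads in untreated tumour 23 and 12 in resistant tumour 33. Position 84914525 had 46 reads in untreated tumour 75 and 8 in resistant tumour 47. The other shared Fbxw7 positions had reads in libraries of 1 group only. Position 84967890 had 55 in untreated tumour 3 and 30 in untreated tumour 13. With shared positions dropped, 57 Fbxw7 sites remained, and 31.37% of resistant and 17.02% of untreated tumours were hit (difference 14.35 percentage points).

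No gene row overlaps the Cul1 row. The nearest is Ezh2, a histone methyltransferase gene on the minus strand whose row lies 4135 bases after it, with 8 sites in 3 resistant and 5 untreated tumours. Cntnap2, a long neural adhesion gene that ends 150533 bases before it, held 80 sites in 15 resistant and 34 untreated tumours (adjusted p = 1 by Fisher's exact test).

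Insertions in both Fbxw7 and Cul1 were found in 6 tumours, 3 in each group. These are 13.6% of the resistant and 14.3% of the untreated tumours hit in Fbxw7, against Cul1 shares of 13.7% and 5.32% over all tumours of each group. They are 42.9% and 60% of those hit in Cul1, against Fbxw7 shares of 43.1% and 22.3% over all. The 60% is 3 of 5 tumours, and the overlap was not tested. The 6 tumours had a median of 2110.5 own sites against 447 over all tumours. At least 1 of the genes was hit in 26 resistant (51.0%) and 23 untreated (24.5%) tumours.

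The other subunits of the ligase were hit in few tumours, as most gene regions were: over all gene regions 19.1% were hit in at least 5 tumours. Of 15 genes of the SCF core and its activation by NEDD8, Cul1 left aside, 11 had a region and 2 were hit in at least 5 tumours. Of these, Cand1 on chromosome 10, whose protein exchanges F-box modules on CUL1, was hit in 4 resistant (7.84%) and 7 untreated (7.45%) tumours. Skp1, the adaptor, was hit in 1 and 2, and Rbx1, the RING subunit, in 0 and 3. These counts are not scaled to the length of a region. The Skp1 and Rbx1 regions are short (16.9 and 12.1 kb) and, with 3 sites each, held 0.178 and 0.249 sites per kb. Cand1 held 0.347 and Cul1 0.175 per kb, and the other regions of this list held less than Cul1. Among 7 other cullins 5 had a region and 4 were hit in at least 5 tumours. Cul3, the scaffold of ligases with BTB proteins, was hit most often of these, in 11 resistant (21.6%) and 11 untreated (11.7%) tumours, with an adjusted p of 1 by Fisher's exact test. Its region of 75.6 kb held 0.370 sites per kb, more than that of Cul1.

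No other F-box gene of the lists was hit in as many tumours as Fbxw7. Of the 8 with WD40 repeats 5 had a region, and the most often hit was Btrc (beta-TrCP), in 1 resistant and 6 untreated tumours. Of 21 with leucine-rich repeats 15 had a region, led by Fbxl17 (6 and 14 tumours) and Fbxl7 (6 and 12), whose regions of 456.6 and 357.1 kb are longer than that of Fbxw7. Skp2, which marks the cell cycle inhibitor p27 for degradation, was hit in 1 and 4.

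The genes of reported FBXW7 substrates and of its regulators had a median of 2 hit tumours each, as did all gene regions. Of 25 substrates 20 had a region and 3 were hit in at least 5 tumours, of which the Mediator subunit gene Med13l was hit in 6 resistant (11.8%) and 6 untreated (6.38%) tumours. Myc was hit in 2 and 1, Notch1 in 1 and 1, and Ccne1 in 0 and 0. The Myc region is short (7.02 kb), and its 4 sites made 0.570 per kb, the most among the substrates, against 0.513 in Fbxw7. Of 11 regulators 9 had a region, among them Gsk3b, which encodes a kinase that phosphorylates degrons read by FBXW7 and was hit in 6 (11.8%) and 8 (8.51%), and the NOTCH inhibitor Numb in 3 and 8. Fisher's exact test called 0 genes in either direction in each of the 6 lists, against 0% of all gene regions, and none had an unadjusted p under 0.05. Median differences ran from -2.38 (WD40 proteins) to 2.24 percentage points (cullins), against 0.563 over all gene regions tested, but rest on 2 to 6 genes a list.

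The tumours hit in Fbxw7 were compared with those hit in the 759 other gene regions outside chromosome 10 hit in at least 10 tumours, by the Jaccard index (tumours hit in both over tumours hit in either, among all tumours). The highest were Fhit (0.338, 23 of 68 tumours) and Trps1 (0.331, 39 of 118). For Cul1 they were a chromosome 12 region with no gene symbol (0.263, 5 of 19), Slc9a9 (0.261, 6 of 23) and Elmo1 (0.259, 7 of 27). Their regions are long, from 237.3 kb (Trps1) to 1613.9 kb (Fhit), and tumours with many sites are hit in many regions, so these indices are a description of shared libraries.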

How the data were processed

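Genomic DNA of 94 untreated and 51 resistant tumours had been sheared, ligated to a splinkerette adaptor and amplified from the 5' arm of the transposon, per the labels' protocols. Positions are in mm10, named in the submitters' processing notes. Neither the aligner nor the site caller is given in the sources used here. The deposited site table gives a read count per site and library, which the authors did not normalise as far as the values show. A further deposited column per library (div) is not defined by the file headers and served only in 1 alternative. The authors' deposited region table gives insertions, tumours and the percent of tumours per group, and, per the file headers, a signed score of −log10 p-values from a gene-centred test, not used here. Its symbol column does not match its identifiers, so 12384 of 13391 gene regions were named, and 9755 given a strand, by identifier from RefSeq tables (GRCm38.p6). Both genes matched there.

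A site was kept in the library with the most reads, and hits needed at least 10 reads. Shares were compared by Fisher's exact test over gene regions hit in at least 5 tumours, orientation by an exact binomial test and position by Mann-Whitney tests over regions with at least 10 sites, each with Benjamini-Hochberg adjustment over all regions tested at a threshold of 0.05. Per-tumour values were compared by permuting group labels over mice (100000 resamples, seed 1). Scripts were tested on simulated data. Python 3.11.15, numpy 2.4.6, pandas 2.3.3 and scipy 1.17.1 were used. Groups came from the treatment labels, and replicates were numbered in accession order. The mouse of 1 tumour was read from a title with an extra digit, and a library with the suffix R2 was counted as a tumour of its own. Named genes are the members, gene rows that overlap them or lie within 200 kb, genes of 6 pathway lists hit in at least 10 tumours (at most 6 per list), and for each member the 3 regions outside chromosome 10 with the most similar hit tumours, of which 1 is not reported here. Skp1, Rbx1, Btrc, Skp2, Myc, Notch1 and Ccne1 were named after their values were seen. The members and lists were chosen with earlier results of these data known.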

Additional observations from a re-analysis of the deposited data

How the results depend on the processing

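The difference in hit share kept its sign, and no adjusted p passed the threshold where one was computed, in all 21 alternatives for Fbxw7 (7.13 to 26.2 percentage points) and in all 21 for Cul1 (1.79 to 11.8). They varied the least number of reads, the treatment of shared positions, the libraries or title forms used, and the unit, and the alternatives without resistant tumour 10, without its mouse and with a div value of at least 2 were chosen after seeing the data. The smallest Fbxw7 difference was that per mouse, and with div of at least 2 it was 10.03 (19.6% of resistant against 9.57% of untreated tumours). A div of 1 was listed at 49 of the 85 Fbxw7 sites and 8 of the 13 Cul1 sites. The number of gene regions called between groups was 0 except for 14 with shared positions kept in every tumour and 1 at 0.1% of the reads of a library, neither set holding Fbxw7 or Cul1.

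The Fbxw7 orientation changed side with 1 site per tumour (51.2% along the gene) and came close to even at 100 reads (48.1%). The difference in Fbxw7 sites per hit tumour passed the unadjusted threshold at 10 reads but not at 1 read (1.79), 5 reads (1.36), 50 reads (0.804), 100 reads (0.615) or without the mouse of resistant tumours 8, 9 and 10 (0.657). The difference in mean Fbxw7 position was -0.181 at 5 reads, with an unadjusted permutation p of 0.0446. The difference in median position by orientation was 0.483, and 0.481 at 1 read, where it passed the adjusted threshold unless sites within 10 bp were counted once (0.447, chosen after seeing the data). The cause of these shifts was not tested. With the 13 untreated libraries and the 1 resistant library under 10000 reads left out, the Fbxw7 difference in hit share was 19.3 percentage points. No paired analysis was possible because replicate numbers were given in accession order and no tumour has a counterpart in the other group.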
